A study of Mus musculus with 17 samples.

Results

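The core insulin receptor signalling cascade was followed through 9 genes: Insr, Irs1, Irs2, Pik3r1, Pik3ca, Akt1, Akt2, Foxo1 and Tbc1d4. Their probes were found on the array by gene name or by an older name of the gene. This gave 20 of the 41174 probes on the array, for 8 of the 9 genes; no probe was matched to Irs2, which was not analysed here. Of the 20 probes, 19 belonged to the 25515 probes that were tested, meaning that 8 or more arrays had a tissue signal well above background. The remaining one, A_52_P939390 of Tbc1d4, was not well above background on any of the 17 arrays. One of the 2 Insr probes, A_52_P494514, was matched by the older name D630014A15Rik, under which the array lists a cloned cDNA, and the other, A_52_P6490, by the symbol Insr.

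The tissue was epididymal white fat, the depot beside the epididymis, of adult male C57BL/6J mice. All mice ate a purified high-fat diet, with 30% of its energy as fat, for 13 weeks. The carbohydrate had a low glycemic index in one group (LGI, 8 arrays) and a high one in the other (HGI, 9 arrays), and the glycemic index ranks carbohydrates by how strongly they raise blood glucose. There was no low-fat group, so both groups share the fat load. On each 2-colour Agilent array, RNA of 1 sample in Cy5 was set against a Cy3 pool of all samples. A level given here is the log2 ratio of a sample to that pool. The pool need not match the mean of the samples used. For 9 epididymal and sperm genes the mean ratio was -2.43 to -2.07 on LGI and -2.54 to -2.18 on HGI arrays. Why these means lay below the pool on every array was not tested. Differences are on the same log2 scale and are taken as HGI minus LGI. The labels number the samples as replicates and give no further detail of the animals, so a p-value here refers to the spread among the samples, which may be technical in part.

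Insulin binds the insulin receptor, a tyrosine kinase at the cell surface encoded by Insr. The receptor phosphorylates the docking proteins IRS1 and IRS2, which recruit phosphoinositide 3-kinase, an enzyme made of a regulatory subunit such as that of Pik3r1 and a catalytic subunit such as that of Pik3ca. Its lipid product brings the kinases AKT1 and AKT2 to the membrane, and AKT2 is the main isoform for insulin-driven glucose uptake in fat cells. AKT phosphorylates TBC1D4 (AS160), which releases the glucose transporter GLUT4 to the cell surface, and FOXO1, which then leaves the nucleus. Signal flow through these proteins runs by phosphorylation, which an array of transcripts does not measure.

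The arrays of HGI 9 and HGI 10 stood apart from the others. Over all probes the log ratios of these arrays correlated with each other (r = 0.787). Their correlations with the other 15 arrays lay between -0.0374 and 0.155, and those among the 15 between 0.335 and 0.806. The mean log2 ratio of 7 seminal vesicle genes was 1.59 on HGI 9 and 1.58 on HGI 10, and lay between -4.30 and -3.93 on the LGI arrays and at most at -3.98 on the other HGI arrays. Smooth muscle markers were also high on these arrays (1.47 and 1.32, against at most -0.69 on the other HGI arrays). The members' results are therefore given also without both arrays. Between 54% and 66.5% of probes were well above background in Cy5 on an array; precision is limited by how many arrays there are. Adipocyte markers were well above background: all 12 of the list were tested, Adipoq, Plin1, Lep and Fabp4 among them.

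The start regions of Irs1 and Pik3r1 are shown first, because these genes had the largest differences among the members in the fit of 17 arrays. Each line holds the 250 bases before a transcription start in RefSeq, build GRCm38.p6, written in the direction of transcription; all 3 lie on the minus strand. Irs1 is at chr1:82291440-82291689, the first Pik3r1 start, that of the longer transcripts, at chr13:101768218-101768467, and the second, internal one at chr13:101692631-101692880. Capitals mark matches, on either strand, to CACGTG (the E-box read by SREBP1, USF and MYC family factors), TGTTTTG (a core of insulin response elements), GTAAACA (the FOXO and forkhead motif) and GGGCGG (the GC box read by SP1).
Irs1: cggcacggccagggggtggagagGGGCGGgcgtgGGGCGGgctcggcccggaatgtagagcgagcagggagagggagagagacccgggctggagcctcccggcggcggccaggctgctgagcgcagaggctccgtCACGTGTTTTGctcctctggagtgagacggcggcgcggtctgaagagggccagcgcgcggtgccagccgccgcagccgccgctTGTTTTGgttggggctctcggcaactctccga
Pik3r1 first start: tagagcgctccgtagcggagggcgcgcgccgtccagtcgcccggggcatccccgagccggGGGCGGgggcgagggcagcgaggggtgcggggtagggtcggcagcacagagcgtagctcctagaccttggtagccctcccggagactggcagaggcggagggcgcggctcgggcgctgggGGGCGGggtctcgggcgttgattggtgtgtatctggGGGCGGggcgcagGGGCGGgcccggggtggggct
Pik3r1 second start: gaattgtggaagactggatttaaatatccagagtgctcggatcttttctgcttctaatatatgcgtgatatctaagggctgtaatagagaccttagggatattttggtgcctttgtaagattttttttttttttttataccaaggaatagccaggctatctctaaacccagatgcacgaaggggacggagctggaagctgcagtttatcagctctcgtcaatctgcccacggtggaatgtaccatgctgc

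The Irs1 window held the E-box 115 bases before the start, overlapping by 2 bases a TGTTTTG match that begins 111 bases before it. A further TGTTTTG match began 32 bases before the start, and GC boxes began 227 and 216 bases before it. The first Pik3r1 start had 4 GC boxes and none of the other motifs, and the second start had none of the 4 motifs. Among 32851 RefSeq windows of this length, 6.02% held CACGTG, 5.56% held TGTTTTG, 3.17% held GTAAACA and 32.7% held GGGCGG. Windows were given for 8 members, 13 windows in all. Irs1 and Irs2 had the only windows among them with CACGTG, and the only ones with TGTTTTG, while GTAAACA occurred in 1 window, of Akt1. These are matches of letters and describe the sequence; no binding was measured.

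Across the cascade, 18 of the 19 tested member probes had a lower mean in HGI, against 49.1% of all tested probes, and 7 of the 8 measured genes had every tested probe lower. The differences were small. Their median was -0.09, against 0.0018 over all tested probes, and the median standard error of a probe was 0.08. With limma and Benjamini-Hochberg adjustment over all 25515 probes, no member reached an adjusted p under 0.05. The share called was 0% over the whole array, where the lowest adjusted p was 0.189. At an unadjusted p under 0.05, 5 member probes were lower, 4 of them of Pik3r1 and 1 of Akt1, and none was higher. Of all tested probes 7.65% had such a p, 4.03% lower and 3.62% higher. The exact permutation test over all 24310 ways to split 17 arrays gave the same 5 member probes under 0.05. It used the same values and was run on member probes only, so it has no share over all probes beside it. No member probe had groups that did not overlap, which 0.0235% of all probes had in the lower direction. Without HGI 9 and HGI 10, 16 of 19 probes were lower, against a background of 50%, and 3 had an unadjusted p under 0.05 in the lower direction, against 2.75% of all probes. Probes of 1 gene share their target, so these counts are not counts of independent measurements.

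**Figure D1:**
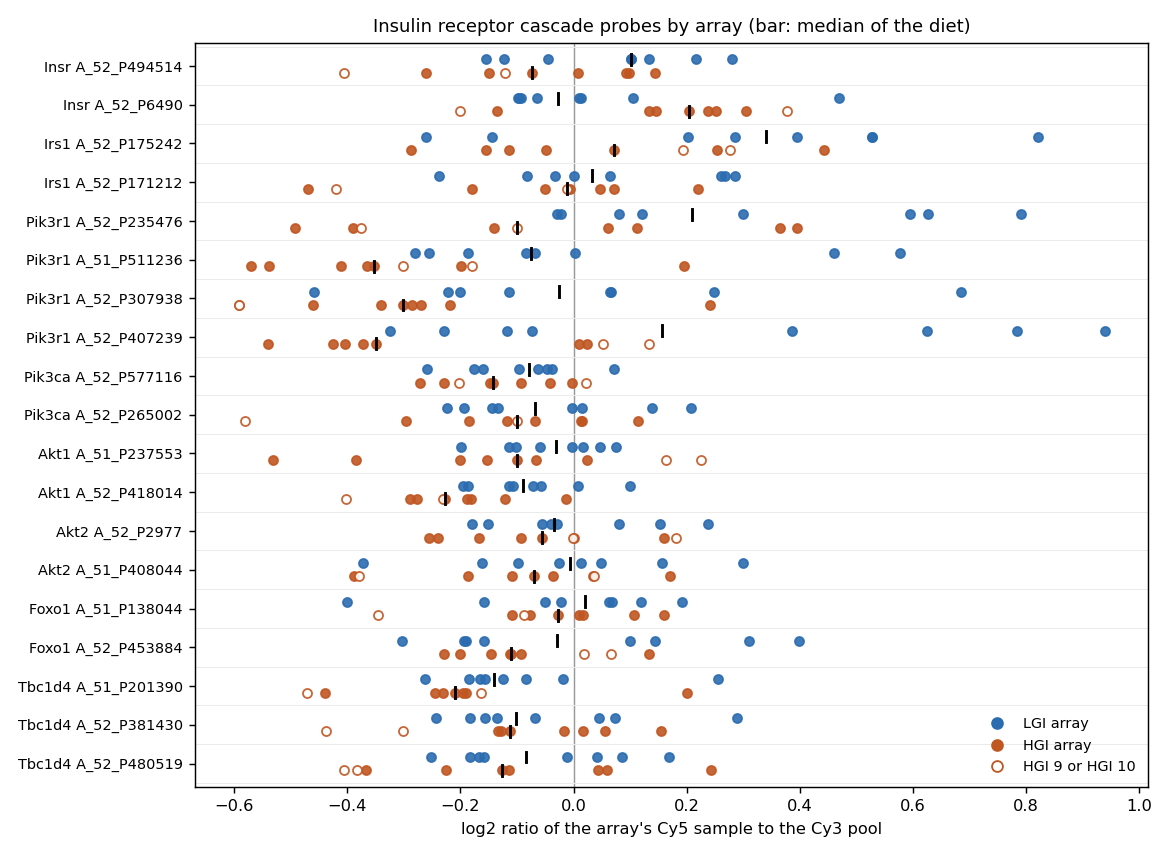
Log2 ratio to the pool (x axis) of each of the 19 tested probes (rows) on every array. Blue points are the 8 LGI arrays, orange points the 9 HGI arrays, open points HGI 9 and HGI 10, and the black bar is the median of the diet. The Pik3r1 rows show the widest gaps between the medians, and the points of the diets overlap in every row.

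**Figure D2:**
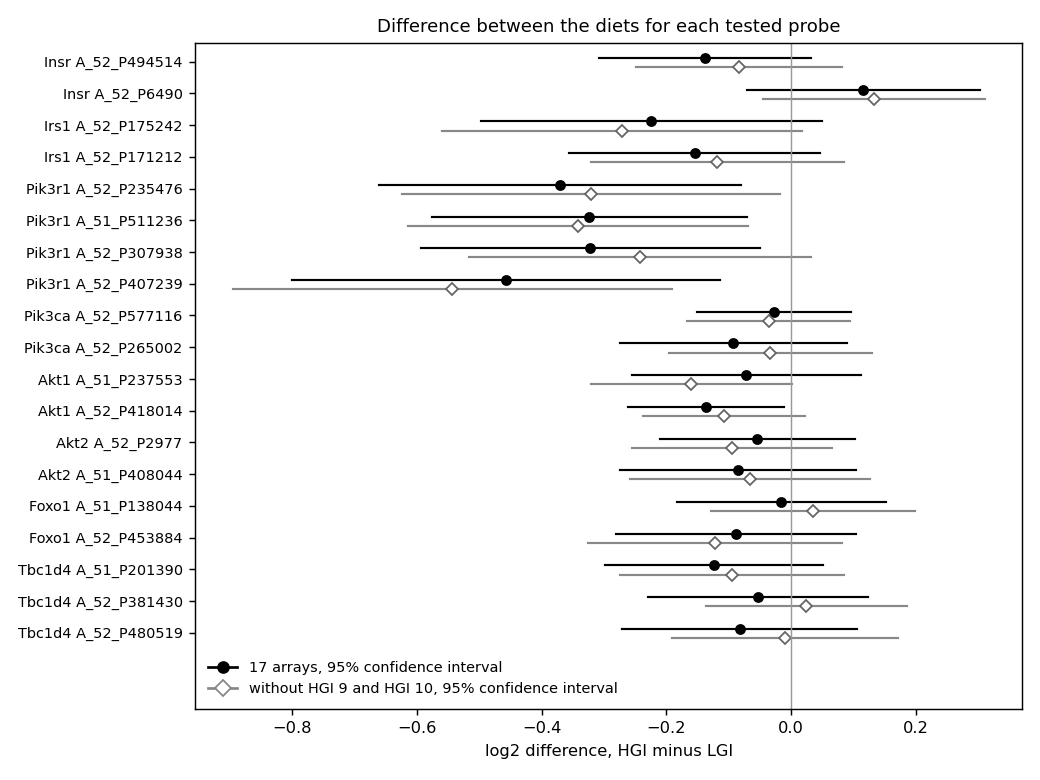
Difference HGI minus LGI in log2 (x axis) for each tested probe (rows). Filled circles with lines are the estimates and 95% confidence intervals of limma over 17 arrays, and open diamonds are those without HGI 9 and HGI 10. Over 17 arrays the 4 Pik3r1 probes lie farthest below 0; without HGI 9 and HGI 10, Irs1 A_52_P175242 lies below Pik3r1 A_52_P307938. Insr A_52_P6490 is the only probe above 0 in the fit of 17 arrays.

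At the top of the cascade, the 2 probes of the insulin receptor gave opposite signs, and neither difference exceeded the spread between samples. On A_52_P494514 the LGI arrays ranged from -0.15 to 0.28 with a median of 0.10, and the HGI arrays from -0.41 to 0.14 with a median of -0.07. The lowest value was that of HGI 10, and 8 of 9 HGI arrays lay below the LGI median. The difference was -0.14 ± 0.08 (SE; limma p = 0.107, adjusted p = 0.724; exact permutation p = 0.118). Without HGI 9 and HGI 10 it was -0.08 ± 0.08. On A_52_P6490 the LGI arrays ranged from -0.10 to 0.47 with a median of -0.03, and the HGI arrays from -0.20 to 0.38 with a median of 0.20. A single LGI array, LGI 8, lay above the HGI median, and 2 of 9 HGI arrays, HGI 1 and HGI 10, lay below the LGI median. The difference was 0.12 ± 0.09 (limma p = 0.212, adjusted p = 0.794; exact permutation p = 0.232), 0.13 without HGI 9 and HGI 10 and 0.18 without LGI 8. This second probe was dim: 5 LGI and 6 HGI arrays had a Cy5 signal well above background, against all 17 for the first. In Cy3 the pool, by which each ratio is divided, was well above background on 4 of the 17 arrays for this probe, so its signs and the gap described next rest on dim signals. The difference was 0.22 on the first 8 arrays scanned and 0.01 on the later 9.

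The gap between the Insr probes was tested within each array, as the first minus the second. It was 0.03 ± 0.22 (SD, 8 LGI arrays) and -0.22 ± 0.21 (SD, 9 HGI arrays), a difference of -0.25. The exact permutation p of that difference was 0.0307, and 0.46 after adjustment over the 15 pairs of probes of 1 gene that were tested this way. Without HGI 9 and HGI 10 the difference was -0.22 with an exact permutation p of 0.0766. It was the one pair of the 15 with an unadjusted p under 0.05, and none passed after adjustment. Where the probes lie in the receptor transcript was not analysed here.

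Irs1, the docking protein that links the receptor to phosphoinositide 3-kinase, had lower means in HGI on both of its probes. On A_52_P175242 the LGI arrays ranged from -0.26 to 0.82 with a median of 0.34, and the HGI arrays from -0.29 to 0.44 with a median of 0.07. LGI 2 was highest, LGI 7 and LGI 9 lay among the lower HGI arrays, and 8 of 9 HGI arrays were below the LGI median. The difference was -0.22 ± 0.13 (SE; limma p = 0.102, adjusted p = 0.721; exact permutation p = 0.146). It was -0.27 ± 0.14 without HGI 9 and HGI 10, and -0.15 without LGI 2. On A_52_P171212 the values ran from -0.24 to 0.29 in LGI and from -0.47 to 0.22 in HGI, with medians of 0.03 and -0.01. The difference was -0.15 ± 0.10 (exact permutation p = 0.156; limma adjusted p = 0.738), and -0.12 ± 0.10 without HGI 9 and HGI 10. All 8 LGI arrays but 5 of 9 HGI arrays were well above background on this probe. On the scanner's own processed signals, which differ in background removal, dye normalization and offset, the same difference was -0.87 (limma adjusted p = 0.699).

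Pik3r1, which encodes the p85α regulatory subunit and, from internal starts, shorter subunits, had the largest differences of the cascade over 17 arrays, and all 4 of its probes were lower in HGI. All 4 are listed by the array under the same reference transcript. On A_52_P235476 the LGI arrays ranged from -0.03 to 0.79 with a median of 0.21, and the HGI arrays from -0.49 to 0.39 with a median of -0.10. LGI 1, LGI 4 and LGI 6 were the highest, and HGI 6 and HGI 7 lay above the LGI median. The difference was -0.37 ± 0.14 (SE; limma p = 0.0147, adjusted p = 0.587; exact permutation p = 0.0331), a ratio 1.29 times as high in LGI. It was -0.32 ± 0.15 without HGI 9 and HGI 10 (exact permutation p = 0.0858; limma adjusted p = 0.633).

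On A_51_P511236 the LGI arrays ranged from -0.28 to 0.58 with a median of -0.08, and the HGI arrays from -0.57 to 0.20 with a median of -0.35. All 8 LGI arrays lay above the HGI median and 8 of 9 HGI arrays below the LGI median, HGI 7 being the exception. The difference was -0.32 ± 0.12 (limma p = 0.0147, adjusted p = 0.587; exact permutation p = 0.0279), and -0.34 ± 0.13 without HGI 9 and HGI 10. On A_52_P307938 the ranges were -0.46 to 0.68 in LGI and -0.59 to 0.24 in HGI, with medians of -0.03 and -0.30. HGI 9 and HGI 10 were the lowest arrays and HGI 7 the highest HGI array. The difference was -0.32 ± 0.13 (limma p = 0.0223, adjusted p = 0.595; exact permutation p = 0.0399). Leaving out HGI 9 and HGI 10 gave -0.24 ± 0.13 (exact permutation p = 0.14), and leaving out LGI 1 gave -0.23.

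The fourth probe, A_52_P407239, had the largest difference of all members in the fit of 17 arrays, though not on the processed signals or in the authors' deposited values. Its LGI arrays ranged from -0.32 to 0.94 with a median of 0.16, and its HGI arrays from -0.54 to 0.13 with a median of -0.35. The LGI arrays fell into a high set (LGI 1, LGI 2, LGI 6 and LGI 8) and a low set within the HGI range, and all 9 HGI arrays lay below the LGI median. The difference was -0.46 ± 0.16 (limma p = 0.0115, adjusted p = 0.572; exact permutation p = 0.0302). On the 15 arrays without HGI 9 and HGI 10 it was -0.54 ± 0.17 (exact permutation p = 0.0219; limma adjusted p = 0.543), and in the values the authors deposited it was -0.18 (adjusted p = 0.813).

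**Figure D3:**
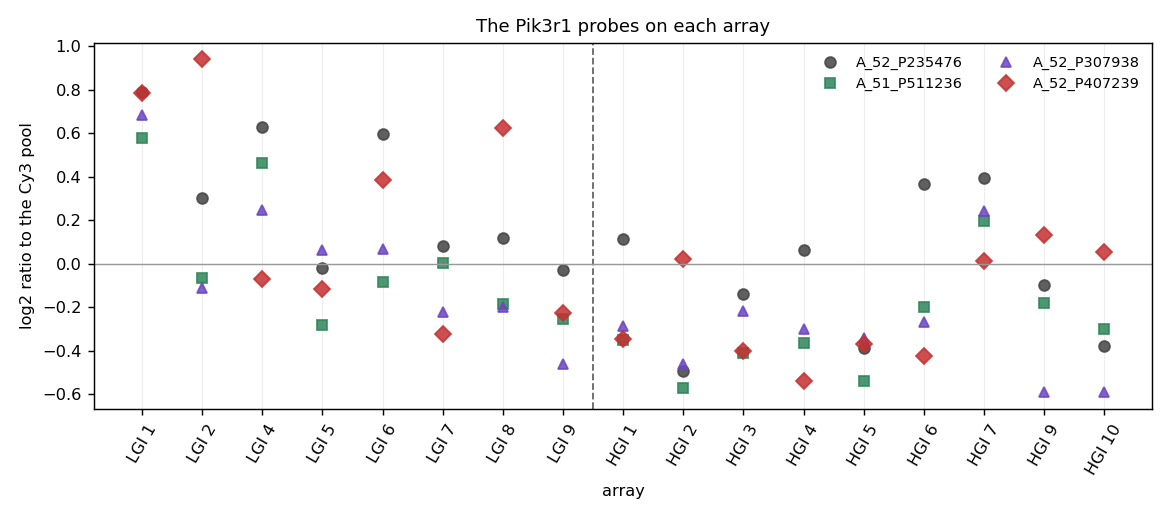
Log2 ratio to the pool (y axis) of the 4 Pik3r1 probes on each array (x axis), with LGI arrays left of the dashed line and HGI arrays right of it. The circles lie high or low on much the same arrays as the squares and the triangles, while the red diamonds of A_52_P407239 depart from them, as on LGI 2, LGI 4 and LGI 8.

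The Pik3r1 probes did not all follow the same samples. After centring within each diet, A_52_P235476, A_51_P511236 and A_52_P307938 correlated over the 17 arrays at r = 0.74 to 0.80, whereas A_52_P407239 correlated with them at 0.19 to 0.25. Adjusted over the 171 pairs of member probes, A_52_P235476 passed by r with both of the other 2 (permutation adjusted p = 0.0214 and 0.0217). By rho it passed with A_51_P511236 (0.79, permutation adjusted p = 0.0359) but not with A_52_P307938 (0.69, permutation adjusted p = 0.168). The pair of A_51_P511236 and A_52_P307938 did not pass by r (r = 0.743, permutation adjusted p = 0.0764). Its rho was 0.355 (permutation adjusted p = 0.661), and its r was 0.504 without LGI 1 and LGI 4, the high arrays on which it partly rests. On LGI 2 the probe A_52_P407239 read 0.94 while A_52_P307938 read -0.11 and A_51_P511236 read -0.07. On LGI 4 the order was turned, with -0.07 against 0.25 and 0.46. The differences between the diets differed by less than the spread: for the gaps between A_52_P407239 and the other 3, the exact permutation p was 0.515 to 0.698 before adjustment and 0.846 after it.

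The catalytic subunit Pik3ca had small differences between the diets. Its probe A_52_P265002 ranged from -0.22 to 0.21 in LGI and from -0.58 to 0.11 in HGI, the lowest value being that of HGI 10, and differed by -0.09 ± 0.09 (adjusted p = 0.823 in limma), or -0.03 without HGI 9 and HGI 10. Its probe A_52_P577116 differed by -0.03, with a 95% confidence interval of -0.15 to 0.10, and by -0.04 on the 15 other arrays. A difference as large as that estimated for any Pik3r1 probe lay outside the interval of both Pik3ca probes, whose lower bounds were -0.15 and -0.27. The intervals of the Pik3r1 probes had upper bounds of -0.11 to -0.05 and so overlapped those of Pik3ca. Whether the genes differed from each other was not tested.

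Akt1 and Akt2, the kinases downstream, had lower means in HGI on all 4 probes, each within about 0.14. The bright Akt1 probe A_51_P237553 ranged from -0.20 to 0.08 in LGI and from -0.53 to 0.23 in HGI. HGI 9 and HGI 10 were its 2 highest arrays, and its difference of -0.07 ± 0.09 (exact permutation p = 0.453) became -0.16 ± 0.08 without them (exact permutation p = 0.051; limma adjusted p = 0.682), and -0.02 without HGI 1, the lowest array. The dim Akt1 probe A_52_P418014, well above background on 5 arrays of each diet, ranged from -0.20 to 0.10 in LGI and from -0.40 to -0.01 in HGI. All 8 LGI arrays lay above its HGI median, and it differed by -0.14 ± 0.06 (limma p = 0.0341, adjusted p = 0.623; exact permutation p = 0.0163). Leaving out HGI 9 and HGI 10 gave -0.11 ± 0.06, the scanner's processed signals gave -0.44, and the Cy5 channel alone gave -0.013 (limma adjusted p = 0.969). The pool in Cy3 was well above background on 8 of the 17 arrays for this probe. The Akt2 probes A_52_P2977 and A_51_P408044 differed by -0.05 ± 0.08 and -0.09 ± 0.09 (adjusted p = 0.888 and 0.85), with values between -0.39 and 0.30 on all arrays, and by -0.09 and -0.07 on the 15 others than HGI 9 and HGI 10.

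The outputs of the cascade, Foxo1 and Tbc1d4, differed by less than the spread between samples on every tested probe. Foxo1, the transcription factor that insulin keeps out of the nucleus, ranged on A_51_P138044 from -0.40 to 0.19 in LGI and from -0.35 to 0.16 in HGI. Its difference was -0.02 ± 0.08, and 0.03 without HGI 9 and HGI 10. On A_52_P453884 it was -0.09 ± 0.09, with LGI arrays from -0.30 to 0.40 and HGI arrays from -0.23 to 0.13, and -0.12 on the 15 arrays. Tbc1d4, the Rab GTPase-activating protein that holds GLUT4 inside the cell, differed by -0.12 ± 0.08 on A_51_P201390, -0.05 ± 0.08 on A_52_P381430 and -0.08 ± 0.09 on A_52_P480519. On all 3 of these probes HGI 10 was the lowest or next to lowest array, with values of -0.47, -0.44 and -0.38. Without HGI 9 and HGI 10 the differences were -0.09, 0.02 and -0.01. Single arrays also moved them, to -0.07 without LGI 6 on the first, -0.0047 without LGI 8 on the second and -0.05 without HGI 9 on the third.

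Members were next compared with each other across samples, after centring within each diet, by permutation tests with 100000 resamples. Over the 28 pairs of genes, each gene taken by its brightest probe, none passed after adjustment on 17 arrays. Insr and Irs1 had r = 0.53 (rho = 0.57; permutation p = 0.0307 and 0.022, adjusted p = 0.386 and 0.207). On the 15 arrays without HGI 9 and HGI 10, r was 0.76 and rho 0.78 (permutation p = 0.00168 and 0.00113, adjusted p = 0.047 and 0.0316). With the 2 arrays farthest from the median of Insr also left out, r was 0.90. Of these 15 arrays, the 7 scanned among the first had r = 0.80 and the 8 scanned later r = 0.72. The relation thus passed only without the arrays that stand apart, and only for this pair of probes. The array lists both of these probes under cloned cDNAs, and the other Insr and Irs1 probes under reference transcripts. On the same 15 arrays the other 3 pairs of an Insr and an Irs1 probe had r = 0.02 (A_52_P494514 with A_52_P171212), 0.26 and -0.22 (A_52_P6490 with A_52_P175242 and A_52_P171212).

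The unusual Pik3r1 probe was also set against the other genes. Over all 171 pairs of tested member probes, a comparison added after the values were seen, 5 passed by r on 17 arrays, 2 of them between Pik3r1 probes. A_52_P407239 followed Irs1 A_52_P175242 with r = 0.77 (rho = 0.80; permutation p = 0.00106 and 0.00042, adjusted p = 0.0363 and 0.0359). Without HGI 9 and HGI 10 r was 0.76 (permutation p = 0.00299, adjusted p = 0.073), with 0.96 among the 7 arrays scanned first and 0.55 among the 8 scanned later. Leaving out the 2 arrays farthest from the Irs1 median gave r = 0.84 in place of 0.77. LGI 1, LGI 2 and LGI 8 were the 3 highest arrays on both probes. No other pair of an Irs1 and a Pik3r1 probe passed. On 17 arrays Irs1 A_52_P175242 had r = 0.354 to 0.402 with the other Pik3r1 probes. Irs1 A_52_P171212 had r = 0.0172 with A_52_P407239, and -0.141 to 0.0712 with the others. Of the other pairs of different genes, Irs1 A_52_P171212 and Foxo1 A_52_P453884 ran against each other (r = -0.754, permutation p = 0.00025, adjusted p = 0.0214; rho = -0.748, permutation p = 0.00117, adjusted p = 0.0611). Leaving out the 2 arrays farthest from the Irs1 median gave r = -0.749. The 15 arrays gave r = -0.775 (permutation adjusted p = 0.018), with -0.806 among the 7 scanned first and -0.925 among the 8 scanned later. The other pairs of an Irs1 and a Foxo1 probe did not show it, with r = -0.159, 0.0803 and 0.0485 on 17 arrays. Akt2 A_52_P2977 and Foxo1 A_52_P453884 had r = 0.713 (permutation p = 0.00098, adjusted p = 0.0363) and rho = 0.718 (permutation p = 0.00143, adjusted p = 0.0611), and r = 0.718 without the 2 arrays farthest from the Akt2 median. On the 15 arrays r was 0.702 (permutation adjusted p = 0.0836), but 0.0321 among the 7 scanned first and 0.754 among the 8 scanned later, so it did not hold in the first set. The other pairs of an Akt2 and a Foxo1 probe had r = 0.0601, 0.338 and 0.566 on 17 arrays, and none passed. On the 15 arrays the strongest pair of different genes was Insr A_52_P6490 and Tbc1d4 A_52_P381430 (r = 0.818, permutation adjusted p = 0.018; rho = 0.746, permutation adjusted p = 0.0619), with 0.401 among the 7 scanned first and 0.954 among the 8 scanned later. On 17 arrays it did not pass (r = 0.674, permutation adjusted p = 0.142), and r was 0.228 without HGI 10 and LGI 8. The other pairs of an Insr and a Tbc1d4 probe had r from -0.345 to 0.346 on the 15 arrays, and none passed. These relations rest partly on dim signals. The pool was well above background on 4 of the 17 arrays for Insr A_52_P6490 and on 13 for Irs1 A_52_P171212. The median r over 17 arrays was 0.255 between probes of the same gene and 0.107 between probes of different genes.

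**Figure D4:**
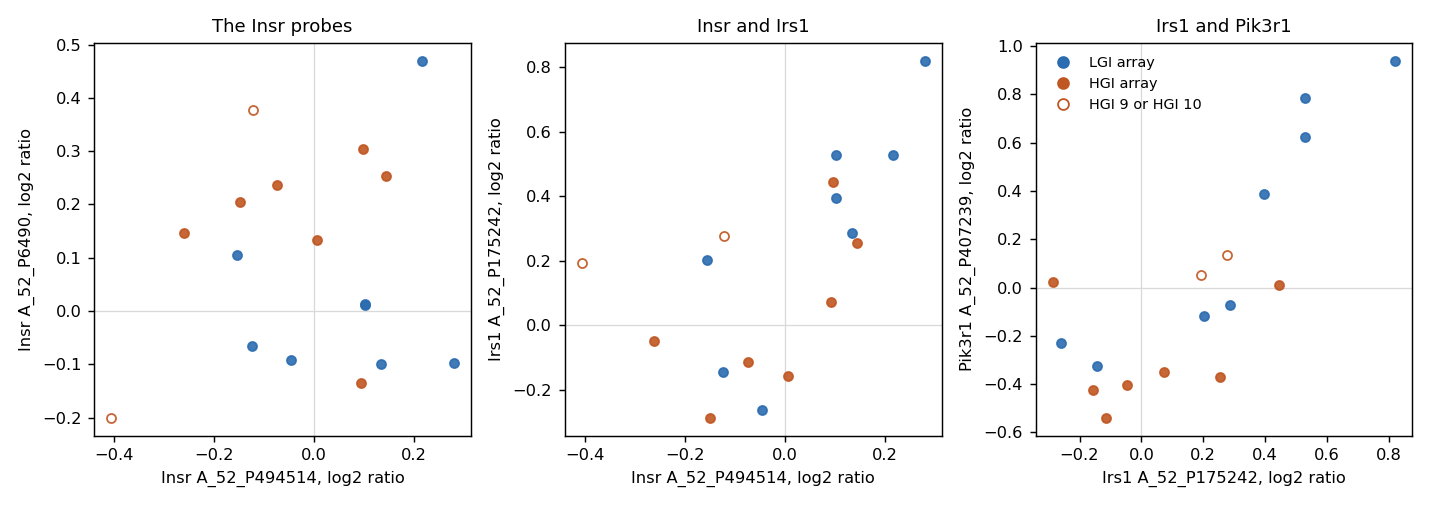
Log2 ratios to the pool of pairs of probes, 1 point per array: the 2 Insr probes (left), Insr and Irs1 (middle), and Irs1 and Pik3r1 A_52_P407239 (right). Blue points are LGI, orange points HGI and open points HGI 9 and HGI 10. On the left most HGI points lie above the LGI points, and in the middle the open points lie left of the rising cloud of the others.

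As a description, the genes whose ratios were most like those of Insr A_52_P494514 over the 17 arrays, among 18133 other tested genes, were 4932438A13Rik (r = 0.89), Kctd4 (0.86) and Smg6 (0.85). For Irs1 A_52_P175242 they were 2 transcripts listed only by accession (0.81 and 0.80) and Vmac (0.80). The arrays share the reference pool, and these values carry no test.

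The rest of the pathway was read from 7 lists of 98 genes, each gene by its brightest tested probe. Of the 94 tested, 61 were lower in HGI and 33 higher, where 47.4% of all tested genes were lower, and 0 passed the adjusted threshold (0 over all 18134 genes). At an unadjusted p under 0.05, 7 were lower (3.8% of all genes) and 4 higher (3.97%). The median difference of the list genes was -0.04, against 0.01 over all tested genes, and -0.03 without HGI 9 and HGI 10, where 59 were lower and 35 higher. The genes with an unadjusted p under 0.05 named next kept their sign on the 15 arrays, with Grb2 at 0.19, Dok1 at 0.14, Pde3b at -0.21, Sesn3 at 0.30, Cited2 at -0.24, Pnpla2 at -0.18, Acly at -0.63 and Thrsp at -0.36. Pdpk1 went from -0.28 to -0.15.

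Next to the receptor, 8 of 14 tested genes were lower and 6 higher. The lowest p belonged to adaptors: Grb2, which leads from the receptor to RAS, differed by 0.26 ± 0.10 (SE; limma adjusted p = 0.587), and the docking protein gene Dok1 by 0.15 ± 0.07 (limma adjusted p = 0.614). Among 18 brakes of the pathway 10 were lower. Trib1, of the tribbles family, differed by -0.12, and Ptpn1, the phosphatase that acts on the receptor itself, by 0.01 ± 0.07.

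Among the other phosphoinositide 3-kinase genes 6 of 8 were lower, among them the regulatory subunit Pik3r2 (-0.12 ± 0.08) and Pdpk1, the kinase that activates AKT (-0.28 ± 0.19). Of 19 genes around AKT and mTOR 10 were lower and 9 higher. Bad, a cell death protein that AKT phosphorylates, differed by 0.14 ± 0.07, Mtor by -0.05 ± 0.07 and Gsk3b by 0.03 ± 0.09.

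At the metabolic end 13 of 15 genes were lower on 17 arrays, but 8 of 15 without HGI 9 and HGI 10. Pde3b, the phosphodiesterase through which insulin restrains lipolysis, differed by -0.23 ± 0.09 (limma adjusted p = 0.587). Slc2a4, which encodes GLUT4, had a difference of -0.17 ± 0.12, which became -0.08 on the 15 arrays. Slc2a1, the glucose transporter of basal uptake, had one of 0.38 ± 0.23, which became 0.06.

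Genes known to be controlled by FOXO factors were mixed, with 7 lower and 6 higher of 13. Sesn3 differed by 0.22 ± 0.09, Cited2 by -0.31 ± 0.14 and Pnpla2, the first lipase of triglyceride breakdown, by -0.20 ± 0.10, all with an unadjusted p under 0.05 and adjusted p from 0.587 to 0.652 in limma. Of 7 transcripts that insulin is known to raise, all 7 were lower in HGI, with a median of -0.26 and -0.30 without HGI 9 and HGI 10. Acly, which makes cytosolic acetyl-CoA for fat synthesis, differed by -0.59 ± 0.18 (limma adjusted p = 0.559), and the lipogenic regulator gene Thrsp by -0.40 ± 0.13 (adjusted p = 0.559). The mean ratio of these 7 genes ran from -0.42 to 0.54 on LGI arrays and from -0.66 to 0.05 on HGI arrays, so the diets overlapped.

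**Figure D5:**
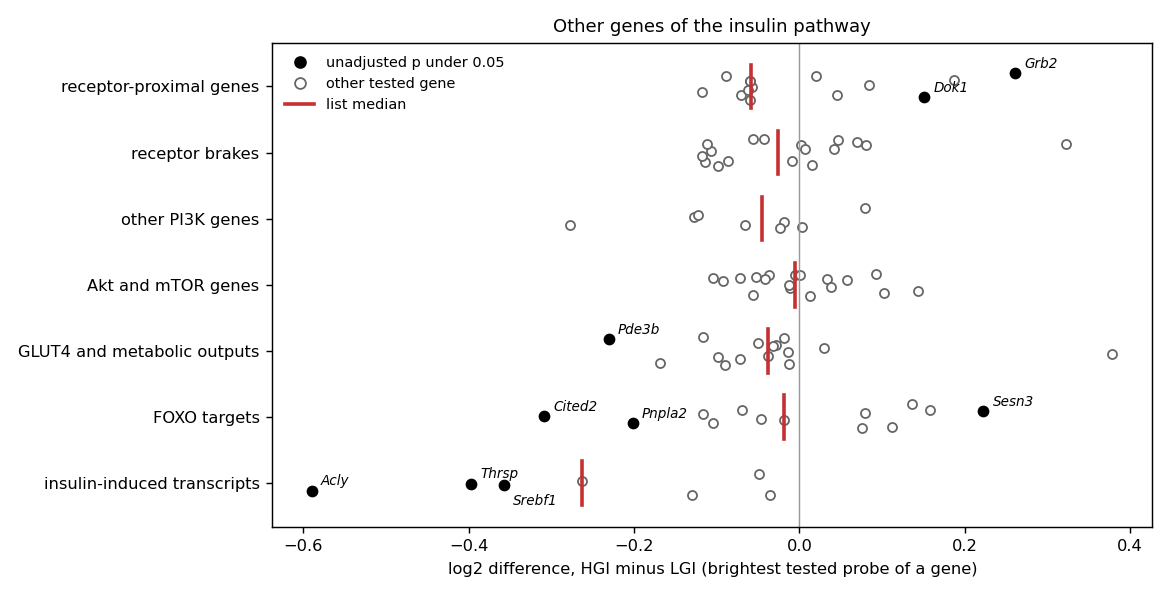
Difference HGI minus LGI in log2 (x axis) of tested genes in the 7 lists (rows). Filled points have an unadjusted limma p under 0.05 and are named, open points are the others, and the red bar is the median of all tested genes of the list. The medians lie close to 0 in 6 lists and at -0.26 in the list of insulin-induced transcripts, and no gene passed after adjustment.

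Markers of the cells in the depot were also uneven between the diets, and none passed after adjustment. Of all tested genes 47.4% were lower in HGI. Of 12 adipocyte markers 10 were lower in HGI, with a median difference of -0.16, and their mean ratio ran from -0.26 to 0.13 on LGI and from -0.33 to 0.02 on HGI arrays. Of 13 tested macrophage markers 12 were higher, with a median of 0.09 and mean ratios of -0.27 to -0.0035 on LGI and -0.18 to 0.43 on HGI arrays. In bulk tissue fewer cells of a type and less RNA per cell cannot be told apart. Within diets, none of the 16 correlations of the 8 genes with the marker means passed after adjustment. The strongest was Foxo1 with the adipocyte mean (r = 0.70, permutation p = 0.00413, adjusted p = 0.0661; rho = 0.66, permutation p = 0.00707), which was 0.69 on the 15 arrays, with 0.63 among the 7 scanned first and 0.02 among the 8 scanned later. For comparison, Pik3r1 A_52_P235476 had r = 0.12 with it. Mesothelial markers, of the lining of the depot, were lower in 6 of 7, with a median of -0.21 (-0.18 without HGI 9 and HGI 10). Of these, 4 were lower with an unadjusted limma p under 0.05, against 3.8% of all tested genes. Their mean ratio ran from -0.11 to 0.45 on LGI and from -0.38 to 0.35 on HGI arrays. Smooth muscle markers were higher in 6 of 6, with a median of 0.49, and 0.10 without HGI 9 and HGI 10. The part of the cell markers in the differences of the members was not tested.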

How the data were processed

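The members and the gene lists were chosen with earlier results of these data known. The scanner files hold spot intensities, mean signal and median local background in each dye, and processed signal intensities, written by Agilent Feature Extraction, per the file headers (version 9.1.3.1; the submitters' processing notes give 9.5.1.1). They also hold other columns, deposited quality flags of 0 or 1 per spot. A table of 19836 probes holds log2 values deposited by the authors, with column medians from 8.329 to 8.331. How it was normalized and centred is not stated in any header or label, and it was used as an alternative. That table holds 16 of the member probes. Their direction was taken from the deviations between arrays, whose correlation with the log ratios' deviations was 0.427 to 0.846. Of 19 arrays named in the design text, 9 LGI and 10 HGI, the authors excluded 2 in quality control.

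Intensities were processed in limma 3.58.1 under R 4.3.3: normexp with an offset of 50, then loess within each array, with the 2256 control spots and flagged spots (4 to 43 on an array) at weight 0 and then left out. An offset of this kind pulls the ratios of dim probes toward 0. Spots of 1 probe were averaged. Probes entered the test if 8 or more arrays had Cy5 well above background. No member probe was saturated. The diets were compared over 17 arrays by lmFit and eBayes without covariates; Benjamini-Hochberg adjustment ran over all tested probes, at a threshold of 0.05. Tests are two-sided. The smallest p the exact permutation test allows is 4.11e-05. Correlations were computed on values centred within diets in Python 3.11.15 with numpy 2.4.6. The limma fit was tested on simulated data.

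Named besides the members were, of each list, the 2 genes with the smallest p, and Slc2a4, Ptpn1, Pdpk1, Mtor, Gsk3b, Pde3b and Pnpla2. Some genes that this rule takes are not reported here and not plotted, and they stay in the counts and medians. Symbols were updated, and promoter windows read, from RefSeq tables of GRCm38.p6. The alternatives were median centring, processed signals, Cy5 alone, the authors' values, other probe filters, array weights, scan order, and leaving out arrays.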

Additional observations from a re-analysis of the deposited data

Results flagged for a closer look

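In 38 combinations of a member probe and a diet, 4 had 1 array far from the others of its diet by Dixon's criterion, which chance meets in about 1 of 20. For Insr A_52_P6490, LGI 8 read 0.47 and the next LGI array 0.11. For Pik3r1 A_52_P307938, HGI 7 read 0.24 and the next HGI array -0.22. For Tbc1d4 A_51_P201390, LGI 6 read 0.25, with the next LGI array at -0.02, and HGI 6 read 0.20, with the next HGI array at -0.16.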

How the results depend on the processing

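Over the 31 alternatives of the diet comparison no member probe passed the adjusted threshold, and 12 of 19 member probes kept the sign of their difference, those of Insr, Irs1, Pik3r1 and Akt1 among them. Among these 12, Insr A_52_P6490, Irs1 A_52_P171212 and Akt1 A_52_P418014 were in 29 of the alternatives, and Tbc1d4 A_52_P480519 in 30. None of these was in the filter for probes above background on all arrays, and the authors' values lacked those of Insr, Irs1 and Akt1. Of 582 alternative values 20 reversed, and the cause was not tested. Foxo1 A_51_P138044 turned to 0.0203 with median centring, 0.0342 in the authors' deposited log2 values, 0.1288 on the first 8 arrays scanned and 0.0349 without HGI 9 and HGI 10, and ranged from -0.0697 to 0.0226 when each array was left out in turn. Pik3ca A_52_P577116 turned to 0.1243 in the authors' values and to 0.0624 on the first 8 arrays scanned. On those arrays 12 of 19 member probes were lower, with Pik3ca A_52_P265002 at 0.053, Akt2 A_52_P2977 at 0.0202, Akt2 A_51_P408044 at 0.0397 and Foxo1 A_52_P453884 at 0.0639; on the later 9 arrays 18 of 19 were lower. Tbc1d4 A_52_P381430 turned to 0.0244 without HGI 9 and HGI 10. Over the whole array 1 probe was called with the Cy5 channel alone, 1 with array weights, and between 0 and 4 when each array was left out in turn, 4 without LGI 7; none was a member. Between members, 1 of 28 correlations passed without HGI 9 and HGI 10. The share of lower probes over the whole array went from 49.12% to 43.55% with median centring.

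The replicate numbers occur in both diets for 7 pairs, and same-numbered arrays did not deviate together: 3 of the 7 correlations were over 0.1. With the replicate number as a block, on these 14 arrays, 0 probes were called and 15 of 19 member probes were lower, with Foxo1 A_51_P138044 at 0.0688, Akt2 A_51_P408044 at 0.0194 and Tbc1d4 A_52_P381430 at 0.0212; without the block the same arrays gave the same values. Scan date and slide as blocks were not run, because all arrays were scanned on 1 day and no slide was seen to hold more than 1 array. Background did differ with scan order within that day. Cy5 of negative control spots was 124 to 145 on the first 8 arrays scanned and 98.3 to 112 on the later 9. With scan order as a block, 18 of 19 member probes were lower.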
